A study of Homo sapiens with 2 samples.

Results

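The metallothioneins and the zinc response were followed through 10 genes in cultures of SW48, an established cell line from a human colorectal cancer. One culture had been treated with AKBA (acetyl-11-keto-β-boswellic acid), a pentacyclic triterpenoid found in the resin of Boswellia trees. The genes were MT1A, MT1E, MT1F, MT1G, MT1H, MT1M, MT1X, MT2A, SLC30A1 and MTF1, and every probe that the platform's annotation gives to these symbols was kept and read on its own. The rule found 12 probes for 9 of the 10 genes, out of 48803 probes on the array, of which 28098 name a single gene and together stand for 18852 genes. No probe was annotated to MT1A, which was therefore not analysed here. The AKBA culture received 20 µM of the compound and the treatment lasted 6 days. The treatment protocol gives the control as vehicle, 0.1% dimethyl sulfoxide (DMSO), for the same time, whereas its source name calls it non-treated, and both cultures grew in Iscove's medium with fetal bovine serum. Each culture was measured on 1 Illumina bead array. No difference below therefore has a replicate to check it against, no test was run, and "higher" and "lower" describe these 2 arrays.

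Metallothioneins are small, cysteine-rich proteins that bind zinc, copper and cadmium in thiolate clusters and buffer free zinc in the cell. When zinc rises in the cytosol, the zinc-finger factor MTF1 binds metal response elements in the promoters of metallothionein genes and of SLC30A1, the gene of the zinc exporter ZnT1 of the plasma membrane, and raises their transcription. Metallothionein genes, MT2A in particular, also respond to glucocorticoids and to oxidative stress, and in the colon they are expressed in the epithelium and vary in level between tumours.

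Of the 12 probes, 9 were detected on both arrays and 3 on neither, where detected means a detection p under 0.01, the p being set by the array's own negative control beads. The 9 probes belong to MT1E, MT1F, MT1G, MT1H, MT1X, MT2A, SLC30A1 and MTF1. MT2A stood highest relative to the control, 1.498-fold higher on the AKBA array. The MT1 genes lay between -0.06 and 0.34 on the log2 scale, SLC30A1 at -0.06 and -0.09 by its probes, and MTF1 at -0.15. No member probe was higher or lower by 1.5-fold or more, against 3.17% of the 10902 named probes detected on at least 1 array that were higher and 4.37% that were lower at this limit. That count depends on the scale, since MT2A stood at 0.583 where the limit is 0.585. Relative to the median of named detected probes it stood at 0.597 and passed, as 3.42% of those probes did, and no member was lower by 1.5-fold, against 4.03%. At 2-fold the count of member probes was also 0 in each direction, against 0.541% and 0.358% of named detected probes. The median log2 difference of the 9 probes was 0.01, beside -0.01 over all 10902.

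The promoters of 5 members were found in RefSeq's promoter sequences of the GRCh38.p14 assembly. Of these, 4 are shown because each holds a match to the core of the metal response element. Each run holds the 250 bases before the RefSeq start of the gene, 5′ to 3′ on the gene's strand. Capitals mark each match to the core of the element, searched as TGCACNC and TGCGCNC on both strands.
MT2A, chr16:56608334-56608583, plus strand: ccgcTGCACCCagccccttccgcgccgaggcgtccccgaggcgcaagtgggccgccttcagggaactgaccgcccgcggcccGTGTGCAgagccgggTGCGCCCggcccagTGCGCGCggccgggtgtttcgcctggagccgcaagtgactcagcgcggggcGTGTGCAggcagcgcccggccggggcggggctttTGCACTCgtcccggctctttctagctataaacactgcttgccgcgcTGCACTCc
MT1X, chr16:56682220-56682469, plus strand: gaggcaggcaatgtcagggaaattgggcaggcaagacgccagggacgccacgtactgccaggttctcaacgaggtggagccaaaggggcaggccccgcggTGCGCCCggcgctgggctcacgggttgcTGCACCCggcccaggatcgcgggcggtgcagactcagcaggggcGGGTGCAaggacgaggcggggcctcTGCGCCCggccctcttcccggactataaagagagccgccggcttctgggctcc
MT1H, chr16:56669564-56669813, plus strand: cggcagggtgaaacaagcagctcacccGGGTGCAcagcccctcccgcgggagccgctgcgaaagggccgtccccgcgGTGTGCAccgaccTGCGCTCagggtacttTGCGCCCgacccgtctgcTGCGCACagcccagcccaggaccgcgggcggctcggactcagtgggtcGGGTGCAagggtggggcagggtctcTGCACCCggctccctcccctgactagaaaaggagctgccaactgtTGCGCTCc
SLC30A1, chr1:211579162-211579411, minus strand: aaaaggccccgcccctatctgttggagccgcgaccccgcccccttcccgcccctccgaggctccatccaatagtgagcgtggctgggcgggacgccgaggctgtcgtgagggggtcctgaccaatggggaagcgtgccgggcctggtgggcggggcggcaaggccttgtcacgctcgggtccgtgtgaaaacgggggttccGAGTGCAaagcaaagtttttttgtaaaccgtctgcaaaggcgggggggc

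MT2A held 7 matches, MT1H 8, MT1X 4 and SLC30A1 1. Of 35116 promoter windows of the same length, 24.8% held at least 1 match, 0.370% at least 4, 0.0313% at least 7 and 0.0171% at least 8. The window of MTF1, on the minus strand of chromosome 1, held 0. A match describes these letters and is not evidence of binding. MT1A, MT1E, MT1F, MT1G and MT1M are named only. The metallothionein genes lie side by side on chromosome 16, where the same RefSeq annotation lists 16 of them, 11 coding and 5 pseudogenes, from MT4 and MT3 through MT2A, MT1E, MT1M, MT1A, MT1F, MT1G and MT1H to MT1X. SLC30A1 and MTF1 lie on chromosome 1.

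MT2A, the most widely expressed metallothionein in human tissues, was measured by 1 probe, ILMN_1686664. Its deposited signal was 8615 in the control and 10847 with AKBA. It was the one detected member probe whose signal was higher on the AKBA array before any normalization, by 25.9%, although that array was dimmer, with a median log2 ratio of -0.30 over named detected probes. After background correction and quantile normalization the log2 difference was 0.58. Of the 10902 named detected probes, 3.22% stood as high or higher. Dim probes scatter more, and of the 1262 named probes with a signal over 2000 on both arrays, 1.74% did. The standard deviation of the log2 difference was 0.25 across those bright probes and 0.30 across all named probes detected on both arrays. These shares describe 2 arrays and carry no estimate of the spread between cultures. In bulk RNA, more cells that express a gene and more RNA per cell cannot be told apart.

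**Figure D1:**
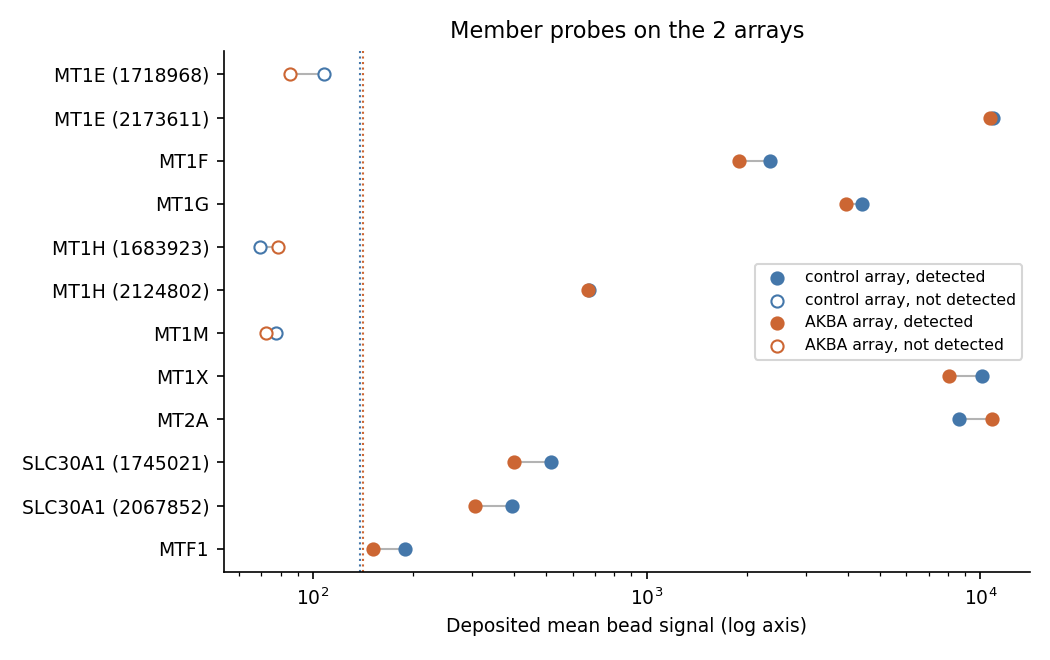
Deposited mean bead signal (log axis) of the 12 member probes on the control array (blue) and the AKBA array (orange); filled circles are detected, open circles are not, and dotted lines mark the lowest detected signal of each array, 138 and 141. MT2A is the one detected probe with the orange point to the right; the points of MT1H probe ILMN_2124802, 672 and 666, lie over each other.

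MT1E, a coding MT1 isoform, had probes that disagreed on whether the gene was detected. Probe ILMN_2173611 gave signals of 10916 in the control and 10664 with AKBA, and a log2 difference of 0.19 after normalization. Probe ILMN_1718968 gave 108 and 85.1, with detection p of 0.0277 and 0.0988, and was detected on neither array. MT1H repeated this picture at a lower signal. Its probe ILMN_2124802 gave 672 and 666, with a log2 difference of 0.34, the highest among the MT1 genes. Its probe ILMN_1683923 gave 69.6 and 78.6, with detection p of 0.561 and 0.191. Transcripts of the MT1 genes are nearly alike in their coding part, and which of them a probe binds was not tested. Values of single MT1 genes are therefore uncertain as to the isoform.

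MT1G, MT1F and MT1X were each measured by 1 detected probe. MT1G gave 4407 in the control and 3964 with AKBA, and its log2 difference was 0.16. MT1F gave 2335 and 1891, a difference of 0.01 after normalization. MT1X gave 10136 and 8051, a difference of -0.06. As deposited, the signals of these 3 genes changed by -10.05% for MT1G, -19.0% for MT1F and -20.6% for MT1X on the dimmer AKBA array, and normalization, which evens out that brightness, placed MT1F and MT1X close to 0. MT1M was detected on neither array, with signals of 77.5 and 72.2 and detection p of 0.281 and 0.377. Taking the 6 detected metallothionein probes as a group, 5 stood above 0 and 1 below, with a median log2 difference of 0.17. Of all named detected probes, 47.9% stood above 0. Probes of the MT1 genes may bind the same transcripts, so the 6 values cannot be taken as separate readings. MT1F was among the 5, at 0.01. The wider metallothionein list read below holds 13 probes, among them undetected ones and genes outside the members, and its unfiltered median was 0.06. MT2A, MT1E, MT1G and MT1H kept their side of the median of named detected probes under all 7 settings tried, and MT1F and MT1X did not.

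**Figure D2:**
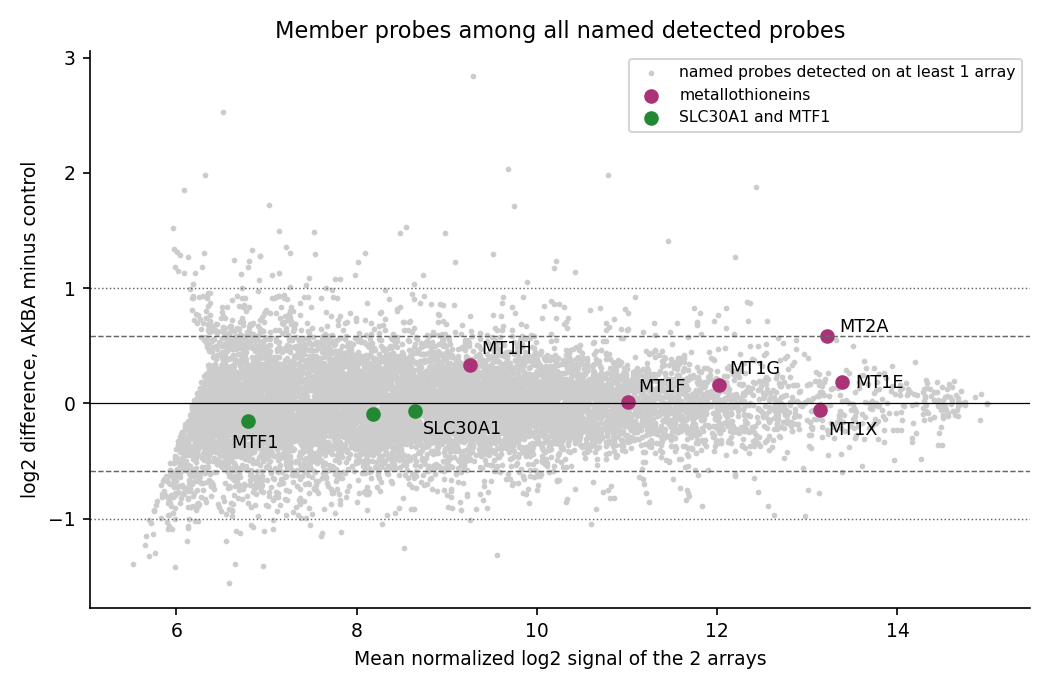
The log2 difference of AKBA minus control (y axis) against the mean normalized log2 signal of both arrays (x axis) for the 10902 named probes detected on at least 1 array (grey), with the detected metallothioneins in purple and SLC30A1 and MTF1 in green; dashed and dotted lines mark 1.5-fold and 2-fold. MT2A lies at 0.58, just under the upper dashed line, and the other members lie between -0.15 and 0.34.

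The AKBA minus control differences of the metallothionein probes were compared with each other, so that the brightness of the arrays largely cancels. This comparison was chosen after the values of MT2A were seen. The log2 difference of MT2A exceeded the median difference of the 5 detected MT1 probes by 0.42. Over the main processing and 6 other settings this gap was 0.42 to 0.49. All these settings process the same 2 arrays, so the range holds no error between arrays or cultures. The gap does not compare the levels of the genes. The gap to MT1X was the widest, at 0.64 (0.64 to 0.67 over the settings). To MT1F the gap was 0.57, to MT1G 0.42, to MT1E 0.40 and to MT1H 0.25, the last with a range of 0.23 to 0.35. To give a sense of probe error, the probes of a single gene differed in their log2 difference by a median of 0.20 over the 1677 genes that had 2 or more probes detected on both arrays, and 90% of these gaps were below 0.51. Among 118 genes with at least 2 probes brighter than 2000 on both arrays, the median gap was 0.13 and the 90th percentile 0.34. MT2A and MT1X are the highest and the lowest of 6 probes, so their gap is the range of the family and cannot be read against these spreads, which also hold no culture error. The sequence windows of MT2A and MT1X shown above, with 7 and 4 matches, belong to the genes with the highest and the lowest difference among the detected metallothioneins, and MT1H, with 8, stood next to MT2A. With 3 windows at hand, this order is given as a description only.

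SLC30A1 was read by both of its probes. ILMN_1745021 gave 517 in the control and 400 with AKBA, a log2 difference of -0.06. ILMN_2067852 gave 395 and 305, a difference of -0.09. The probes differed by 0.03, less than the median gap between probes of a gene, and neither was far from the median of all named detected probes. Of those probes, 56.7% and 60.3% stood as high or higher. For MTF1, the zinc sensor itself, the signals were 189 and 151 and the detection p-values 0.00395 and 0.00659. The lowest detected signals were 138 and 141, so MTF1 lay just above the detection limit and the size of its difference, -0.15, is uncertain. SLC30A1 and MTF1 thus did not share the direction of MT2A on these arrays, and whether they differ from it beyond culture error could not be tested.

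**Figure D3:**
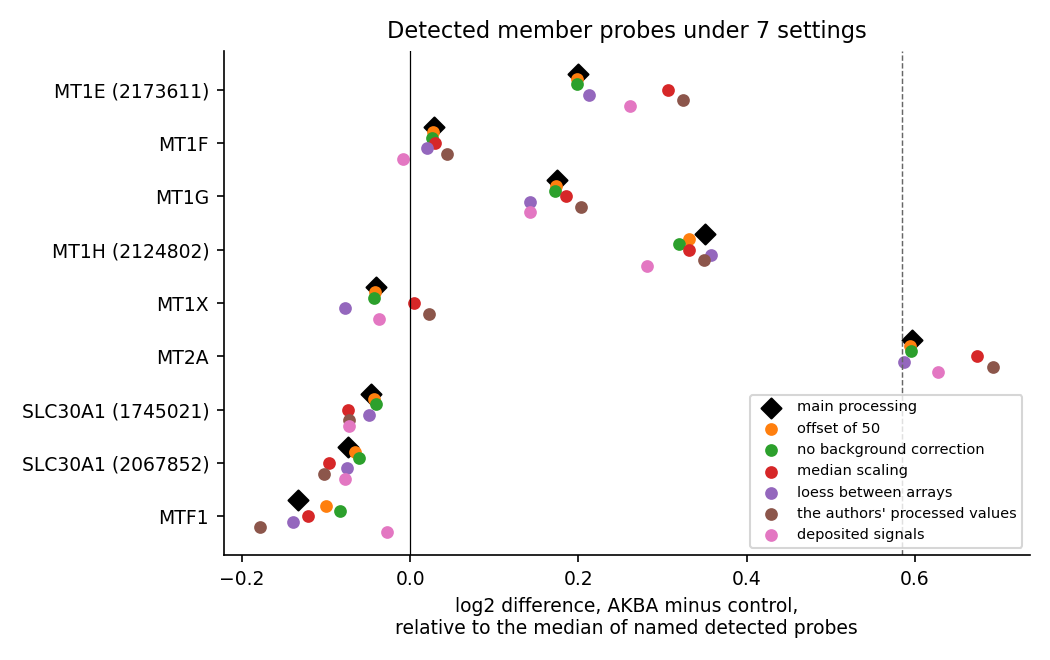
Detected member probes (rows) with their log2 difference of AKBA minus control relative to the median of named detected probes (x axis) under the main processing (black diamonds) and 6 other settings (coloured circles); the dashed line marks 1.5-fold. MT2A stays between 0.59 and 0.69, MT1E, MT1G and MT1H stay above 0, MT1F and MT1X lie on both sides of 0, and the SLC30A1 probes and MTF1 stay below it.

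MT2A lay near the 1.5-fold limit, and its side of it depended on the scale. Relative to the median of named detected probes, its difference was 0.60 in the main processing and 0.59 to 0.69 over the 7 settings, past the limit in each. Unadjusted, it passed in 1 of the 7, the authors' processed values. MT1E ranged from 0.20 to 0.32, MT1G from 0.14 to 0.20 and MT1H from 0.28 to 0.36 on that scale. MT1F, from -0.01 to 0.04, and MT1X, from -0.08 to 0.02, took no settled side. Both SLC30A1 probes stayed below the median, from -0.10 to -0.04, as did MTF1, from -0.18 to -0.03.

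The genes around the members were read from 5 lists covering metallothionein paralogs, zinc exporters, zinc importers, copper and cadmium handling, and regulators. Of the paralogs outside the members, MT1B, the pseudogene MT1L, MT3, a growth-inhibitory isoform of the brain, and MT4, an isoform of stratified epithelia, had 1 probe each. None of these 4 probes was detected on either array, with signals from 63.2 to 78.0 in the control and from 63.4 to 81.8 with AKBA. Of the 11 genes of the cluster with a named probe, 6 thus had a detected probe. Which isoforms gave that signal was not tested.

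Zinc exporters of the SLC30 family move zinc out of the cytosol, into organelles or out of the cell. Of their 17 probes, 7 were detected, 3 above and 4 below the median of named detected probes. Their median difference was -0.06, or 0.001 without a filter on detection and -0.15 with the authors' values. List medians from the authors' values, here and below, were not adjusted for the median of all named detected probes in that setting, -0.098. They therefore include a shift shared by the whole array. SLC30A7 loads zinc into the Golgi for secreted and membrane enzymes. It was the one gene of the 5 lists past 1.5-fold in the main processing, read unadjusted. Of the 45 detected probes of the lists, 1 was lower at this limit and 0 higher, against 4.37% and 3.17% of named detected probes. Read relative to the median, MT2A also passed. The signal of SLC30A7 was 602 in the control and 321 with AKBA, 1.62-fold lower, at -0.70 on the log2 scale. Relative to the median of named detected probes it stayed between -0.73 and -0.59 over the 7 settings. No other probe checks it. SLC30A5 and SLC30A6, which together form a zinc transporter of the early secretory pathway, stood on the other side. SLC30A5 was at 0.22 and 0.16 by its detected probes, and SLC30A6 at 0.51, with signals of 154 and 166 close to the detection limit. SLC30A9, a mitochondrial zinc transporter, had 855 and 660, a difference of -0.07.

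Zinc importers of the SLC39 family bring zinc into the cytosol. Of 21 probes, 15 were detected, 11 above and 4 below the median, and their median difference was 0.18, or 0.08 with the authors' values and 0.07 without a filter on detection. SLC39A9 stood at 0.31, and SLC39A6, a plasma membrane importer, at 0.29 and 0.21 by its probes. SLC39A3 gave conflicting values of 0.44, 0.26 and -0.47 by 3 probes, a gap of 0.91, so that no direction can be given for it. The probe at -0.47 had signals of 227 and 154, the latter near the detection limit. The probe at 0.44 had 282 and 294, and the probe at 0.26 had 2081 and 1994. SLC39A1, a plasma membrane importer, stood at -0.18, and SLC39A7, which releases zinc from the endoplasmic reticulum, at -0.07 and -0.04. None of the importer probes passed 1.5-fold in the main processing, and SLC39A7 changed its side of the median with the setting.

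Genes of copper and cadmium handling had 11 detected probes, 3 above and 8 below the median, with a median difference of -0.15. That median shrank to -0.02 relative to the median of named detected probes under median scaling, and to -0.02 without a filter on detection. The lowest were SLC11A2, a divalent metal importer, at -0.36 with signals of 1871 and 1167, the copper chaperone ATOX1 at -0.33 with 2027 and 1291, and the copper ATPase ATP7B at -0.26. The copper chaperone of superoxide dismutase, CCS, gave 0.34 and -0.02 by its probes, and COMMD1 stood at 0.19. Over the 7 settings, 4 of the 11 probes, those of SOD1, SCO1 and COX17 and the lower one of CCS, lay on either side of the median. Among regulators, 6 probes were detected, 2 above and 4 below, with a median of -0.10, which was -0.21 with the authors' values and 0.11 without a filter on detection. NFE2L2, the oxidative stress factor NRF2, stood at 0.33 with signals of 1401 and 1382, and SP1 at 0.17. KEAP1, the zinc-sensitive adaptor that targets NRF2 for degradation, stood at -0.23 and -0.17, and MTF2, a Polycomb accessory protein that shares its name with MTF1 but not its function, at -0.06.

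**Figure D4:**
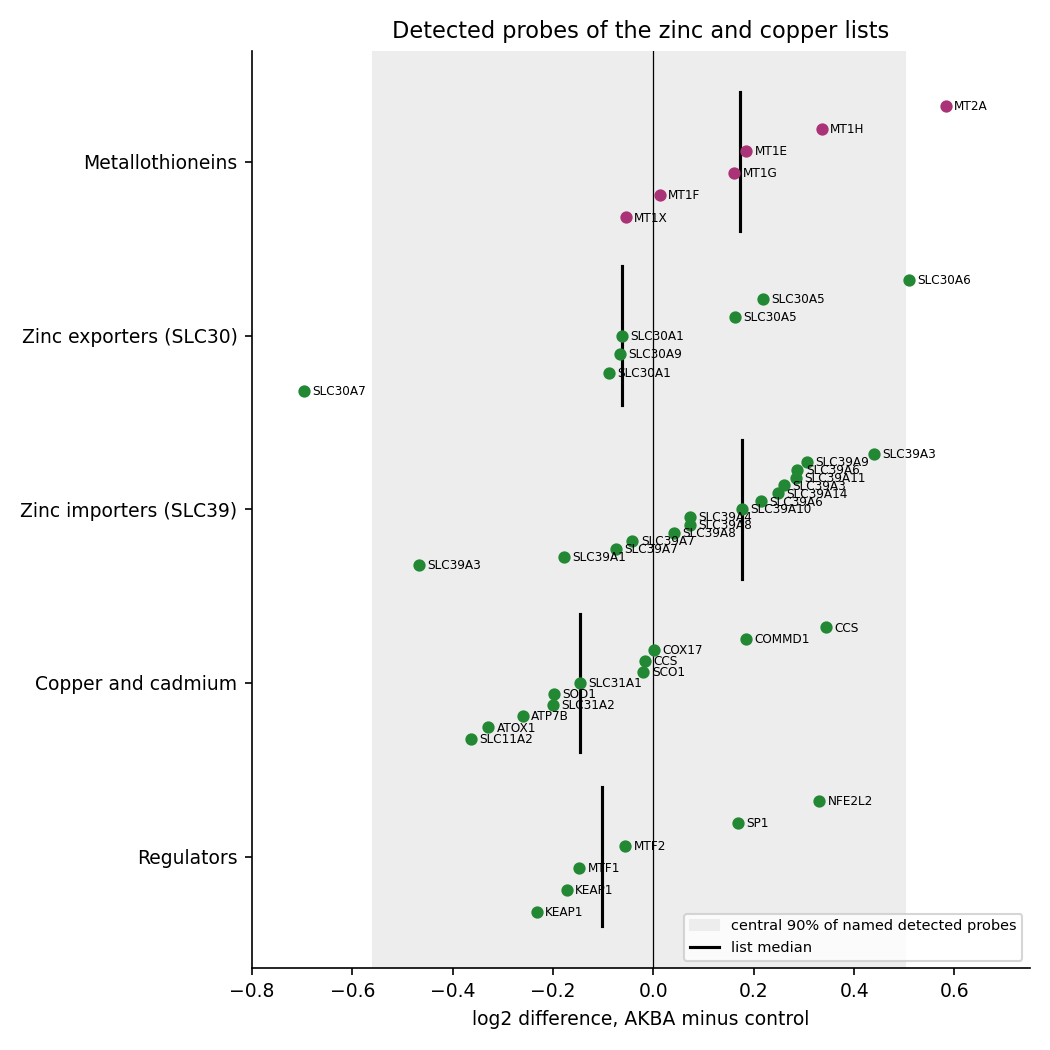
The log2 difference of AKBA minus control for each detected probe of the 5 lists (rows, 1 point per probe with its gene), with the list median as a black bar and the central 90% of named detected probes, -0.56 to 0.50, in grey. MT2A and SLC30A6 lie above and SLC30A7 below the grey band; the other 42 probes lie inside it.

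The identity of the cells was checked against markers. Of 12 colorectal epithelial genes, EPCAM, CDH1, KRT8, KRT18, KRT19 and the intestinal factor CDX2 were detected, and CDX1, KRT20, CEACAM5, CEACAM6, LGALS4 and VIL1 were not. The 8 detected epithelial probes ranged from -0.40 for CDX2 to 0.59 for KRT18, with 7 above the median of named detected probes. Their median difference was 0.39. The KRT18 probes gave 196 and 221, and 154 and 166, and the KRT19 probe 214 and 223. These signals lay not far above the lowest detected ones, 138 and 141, so the sizes of these differences are uncertain. The summed deposited signal of all epithelial probes, undetected ones included, was 16320 in the control and 15421 on the dimmer AKBA array, not normalized. EPCAM probe ILMN_2160210 alone gave 9723 and 9907. None of 11 fibroblast and 3 endothelial probes was detected. Of 10 leukocyte probes, 2 of CD68, a lysosomal protein that is not confined to leukocytes, were detected, at 0.77 and -0.06, while PTPRC, CD3E and CD14 were not. The part of these differences in the values of the metallothioneins was not tested.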

How the data were processed

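Per the labels' protocols, RNA was purified on columns and labelled complementary RNA was hybridised to Illumina arrays. The signal intensity deposited by the authors is a mean bead signal per probe, neither background subtracted nor scaled, as its values show. The deposited detection p-value moves in steps that correspond to 759 negative controls. The authors' processed intensity is a linear function of the deposited signal, with slopes of 1.00 and 1.20 and intercepts of -74.7 and -86.5 for control and AKBA. Its column means were equal, at 351.6, and its column medians were 6.50 and 7.63. No source used here names the software behind the deposited signal or the processed intensity.

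The arrays were processed with neqc of limma 3.58.1 in R 4.3.3 (normexp with an offset of 16, quantiles, log2). Python 3.11.15 and pandas 2.3.3 were used for tables. Probes were named from the platform annotation, with symbols updated through Entrez identifiers in RefSeq. The normalization was tested on simulated data, through the medians of groups of probes well above background. That test does not measure the error of a single probe. Precision is limited by the number of arrays, 1 per group. Alternatives were a normexp offset of 50, quantile normalization alone, median scaling, cyclic loess, the authors' values with a floor of 16, deposited signals, a detection p under 0.05, no filter and means over probes. All member probes are named, with list genes past 1.5-fold and up to 3 extremes per list and direction. Members and lists were chosen with earlier results of these data known. Probe sequences were not used here.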

Additional observations from a re-analysis of the deposited data

How the results depend on the processing

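Of 201 recomputed values, 195 moved by less than 0.20 on the log2 scale, the median gap between probes of a gene, or kept their count within 1.5 times, and 6 did not. Many of the 195 were counts that stayed at 0, such as every 2-fold count of member probes, and could hardly have moved. The total therefore says little about single values. Settings that moved the median of named detected probes by over 0.1, median scaling at -0.31 and deposited signals at -0.30, were read relative to that median. The authors' values, at -0.098, fell just short of this limit and were read unadjusted. Ranges below that include them therefore hold that shift. The count of member probes higher by 1.5-fold or more was 0 in the main processing, read unadjusted, and 1, MT2A, under median scaling, read relative to the median, and under the authors' processing. The metallothionein list has the same counts. Counts on both scales were added after the data were seen. Under median scaling the move comes from this change of scale: relative to the median the count was 1 in all 7 settings, and unadjusted it was 1 under the authors' processing and 0 in the others. With the authors' processed values, unadjusted, 1 probe of the zinc importers, the lowest of SLC39A3, was lower by 1.5-fold or more. It stood at -0.54 relative to the median, short of the limit. The median of the regulators was 0.11 without a filter on detection, where undetected probes enter. The cause of the other changes was not tested. The median of the detected members ranged from -0.05 to 0.09, that of the metallothionein list from 0.06 to 0.25, of the importers from 0.07 to 0.21, of the exporters from -0.15 to 0.001 and of the copper and cadmium list from -0.15 to -0.02. Depth on arrays is signal over background. MTF1, SLC30A6, SLC39A7 and the lowest probe of SLC39A3 lay too near the detection limit for their sizes to be read. No paired analysis was possible because each group holds 1 array, and for the same reason no array could be left out.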

Other observations

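The same promoter windows were searched for further motifs, chosen after the sequences had been seen. The AP-1 site, TGACTCA on either strand, occurred once in the MT2A window, from -104 to -98 relative to the start of the gene, and not in those of MT1X, MT1H, SLC30A1 or MTF1. Of 35116 windows of the same length, 4.20% held it. The core of the antioxidant response element, TGACNNNGC, matched at the same place in MT2A, from -104 to -96, so that the motifs overlap there. It also matched once each in MT1X, from -243 to -235, and in SLC30A1, from -88 to -80, and 10.9% of all windows held it. These matches are descriptions of the sequence. Binding was not measured.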
